A study of Mus musculus with 40 samples.

Results

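Six3, Otx1, Otx2, Emx2, En1, En2, Gbx2 and Egr2 are transcription factor genes that mark successive levels of the embryonic brain, and their expression was followed in RNA from the developing neck of the mouse. The 8 genes were chosen by name as forebrain, midbrain and hindbrain factors, by a rule that uses no measured value, though with earlier results of these data known, and all 8 were found by symbol among 53647 gene identifiers. The question was which level of the neural tube, if any, contributed RNA to pieces of tissue cut at E10.5 (E, embryonic day).

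Bulk RNA sequencing had been done on the larynx, esophagus and trachea of wild type FVB/N mice at 5 embryonic ages from E10.5 to E18.5, the others being E11.5, E13.5 and E15.5, and on the larynx at birth (P0) and in adults. The animals carried no transgene and received no treatment, and the labels give the adults as 6-8 weeks old. At E10.5 the larynx is the primitive laryngopharynx (LPh). Embryonic tissue was pooled from 10 animals at an age, or 20 at E15.5, and cut as pieces of a few millimeters at most. Whether these numbers hold for each library is not stated. Every group had 2 libraries, and values are given as library 1 and library 2 of a group. The pieces were cut by position and not sorted, and a pool of embryos gives no spread between animals. The 40 libraries fall into 30 with short codes in their names, which cover E10.5 to E18.5, and 10 named by an index sequence, which repeat E15.5 and add P0 and adult larynx.

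The neural tube of the embryo is divided along its length by transcription factors that are switched on at fixed levels. Otx2 is expressed in the forebrain and midbrain and ends where Gbx2 begins, at the isthmus, the organizing center between midbrain and hindbrain, and En1 and En2 are expressed across that boundary. Six3 and Emx2 are found in the forebrain, Otx1 in forebrain and midbrain, and Egr2, also called Krox20, in rhombomeres of the hindbrain, while the posterior Hox genes start in the spinal cord. None of these genes belongs to the brain alone: En1 is also used in the dermomyotome, the ventral ectoderm and spinal cord interneurons, Emx2 in the urogenital ridge, Gbx2 in spinal cord neurons, Otx1 and Otx2 in sense organs of the head, and Egr2 in Schwann cells and as an immediate early gene.

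On GRCm39, the assembly of the count tables, the anterior genes lie at chr17:85920640-85936730 (Six3, plus strand), chr11:21944764-21952897 (Otx1, minus), chr14:48894099-48911276 (Otx2, minus) and chr19:59446804-59453789 (Emx2, plus). The midbrain and hindbrain genes lie at chr1:120530108-120535721 (En1, plus), chr5:28370689-28377195 (En2, plus), chr1:89855678-89858920 (Gbx2, minus) and chr10:67371305-67378018 (Egr2, plus). All are protein-coding, and the values are sums over all transcripts of a gene. Promoter sequence from RefSeq (GRCm38.p6) was found for 6 of the 8, with no entry used for Otx1 and En2. It is printed for 3 genes with different patterns at E10.5, Six3 and Otx2 on the anterior side and Gbx2 on the posterior side, as the 250 bases before the annotated start, 5′ to 3′ on the gene's strand. Capitals mark TAATTA, a core recognized by many homeodomain proteins, and the Otx core TAATCC was searched on both strands as well.
Otx2, chr14:48667645-48667894, minus strand: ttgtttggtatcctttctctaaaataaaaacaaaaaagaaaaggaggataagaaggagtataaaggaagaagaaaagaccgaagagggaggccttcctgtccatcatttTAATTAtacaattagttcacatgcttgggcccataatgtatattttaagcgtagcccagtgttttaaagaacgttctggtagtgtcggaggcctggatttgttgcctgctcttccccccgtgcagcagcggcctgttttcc
Six3, chr17:85620584-85620833, plus strand: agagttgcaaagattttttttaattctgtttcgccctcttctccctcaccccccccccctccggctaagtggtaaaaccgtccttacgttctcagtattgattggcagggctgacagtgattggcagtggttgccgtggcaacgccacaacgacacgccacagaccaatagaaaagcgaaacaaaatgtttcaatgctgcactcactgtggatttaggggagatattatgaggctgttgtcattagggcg
Gbx2, chr1:89931177-89931426, minus strand: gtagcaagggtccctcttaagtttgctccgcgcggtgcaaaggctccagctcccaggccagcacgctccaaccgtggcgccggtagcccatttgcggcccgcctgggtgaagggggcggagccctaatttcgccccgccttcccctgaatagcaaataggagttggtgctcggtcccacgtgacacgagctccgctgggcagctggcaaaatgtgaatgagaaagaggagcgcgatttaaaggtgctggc
The Otx2 window held 1 TAATTA and those of Six3 and Gbx2 held none, beside a share of 4.84% among 32851 promoters, and TAATCC, found in 6.25% of them, was in none of the 3. GC content was 42.0% for Otx2, 48.8% for Six3 and 61.6% for Gbx2, against a median of 52.4%, and the windows held 6, 10 and 18 CG pairs. These matches describe the letters only.

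Depth ran from 3286403 to 35831491 expected counts per library, and mitochondrial ribosomal RNA took 9.30 to 32.2% of short-code and 0.05 to 0.196% of index libraries. In 3 short-code libraries, E11.5 larynx 2, E15.5 trachea 2 and E15.5 larynx 2, counts were found for 1107, 1010 and 682 of 1193 olfactory receptor genes, against 79 to 317 in the other 37. E11.5 larynx 1 was the shallowest library, where 3 counts equal 0.913 CPM (counts scaled by the total of the library). Tests were repeated without the 3 libraries, and counts of calls that changed are given. Levels are normalized counts unless another scale is named, which are counts scaled to a common library size and comparable between libraries for 1 gene but not between genes of different length. In tissue pieces, fewer cells of a type and less RNA per cell cannot be told apart.

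At E10.5 Six3, Otx1, Otx2 and En2 were at their highest in the LPh, while for Gbx2, En1 and Egr2 the LPh overlapped both other tissues. Otx2 was at 893 and 152 in the LPh, at 15.8 and 25.7 in the trachea, and at 0 and 28.2 in the esophagus. Both LPh libraries were above the other 4, and LPh 1 held several times the Otx2 of LPh 2. Otx1, its paralog, was at 182 and 38.1 in the LPh, at 0 and 11.8 in the trachea, and at 0 and 7.28 in the esophagus, and again both LPh libraries were above the rest. En2, a gene of the midbrain and isthmus, stood at 285 and 60.6 in the LPh against 1.75 and 1.07 in the trachea and 0.980 and 0 in the esophagus, which is at most 2 expected counts in any library outside the LPh. Its 2 LPh libraries were far above the other 4. Six3, the most anterior of the 8, was at 35.4 and 29.4 in the LPh and at 0 in all 4 other libraries at this age. Against a floor of 3 counts per library, Six3 was at least 11.4-fold higher in the LPh than in the esophagus, and at least 11.1-fold higher than in the trachea.

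The other 4 genes had counts in every library of all 3 tissues at E10.5. Emx2 was at 159 and 58.0 in the LPh, 58.7 and 65.3 in the trachea and 54.9 and 25.5 in the esophagus, and the LPh and trachea overlapped. En1 was at 59.1 and 20.8 in the LPh, 34.2 and 2.14 in the trachea, and 66.7 and 34.6 in the esophagus, with 1 trachea library far below the rest. Gbx2, which borders Otx2 at the isthmus, was at 29.5 and 58.0 in the LPh, 27.1 and 52.5 in the trachea and 44.1 and 91.1 in the esophagus, with all 3 tissues overlapping. Egr2 was low throughout, at 1.18 and 11.3 in the LPh, 3.50 and 3.21 in the trachea and 8.82 and 11.8 in the esophagus. For En1 and Egr2 both esophagus libraries were above both trachea libraries, as for 13.0% of all genes, and the LPh overlapped each. For Emx2 both trachea libraries were above both esophagus libraries, as for 17.2% of all genes.

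**Figure D1:**
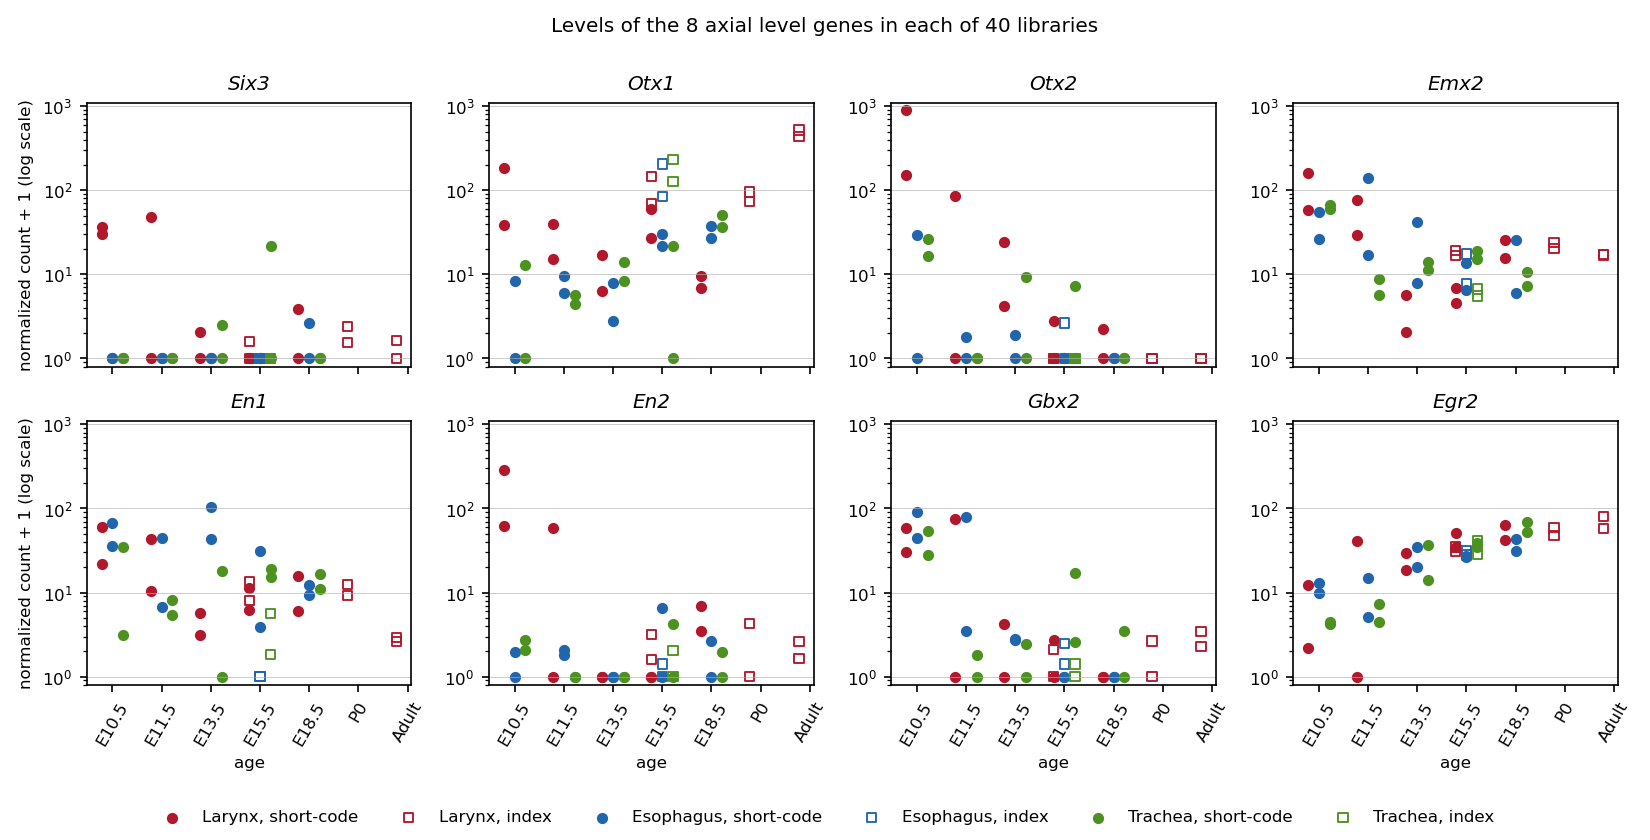
Normalized counts of the 8 genes (vertical axis, count plus 1 on a log scale) in each library, by age, with a color for each tissue and a marker shape for each kind of library. Six3, Otx1, Otx2 and En2 are highest in the 2 E10.5 larynx (LPh) libraries among E10.5 samples, Six3 at 35.4 and 29.4 against 0 in the others, and Egr2 is higher at E13.5 than at E10.5.

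On the scale of normalized counts per kilobase of exon, which allows genes to be compared, Otx2 led the 8 in the LPh with a mean of 96.6 (165 and 28.2 in the 2 libraries). En2 followed at 36.8 (60.7 and 12.9) and Emx2 at 36.2 (53.1 and 19.3), then Gbx2 at 19.9, Otx1 at 19.3, En1 at 15.0, Six3 at 5.81 and Egr2 at 1.83. The 2 libraries overlapped between every pair of neighbors in this order down to En1. Six3, at 6.35 and 5.27, lay below both libraries of every gene above it, and Egr2 lay below Six3 in both. Otx2, on the anterior side of the isthmus, was far above Gbx2, on its posterior side, in LPh 1 (165 against 13.4 per kilobase) and close to it in LPh 2 (28.2 against 26.4).

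Between tissues at E10.5, none of the 8 genes passed the test, edgeR's quasi-likelihood test with Benjamini-Hochberg adjustment over all 36495 genes tested, at an adjusted p under 0.05. Larynx against esophagus called 0.167% of all genes and larynx against trachea 0.575%, so that few genes of any kind passed. En2 came nearest, 8.20 higher in the LPh than in the esophagus on the fitted log2 scale (standard error (SE) 1.77, edgeR adjusted p = 0.0686) and 6.80 higher than in the trachea (SE 1.59, adjusted p = 0.0524). Otx1 differed by 4.84 (SE 1.17, edgeR adjusted p = 0.113) and 4.25 (SE 1.13, adjusted p = 0.0957), and Otx2 by 5.19 (SE 1.62, adjusted p = 0.623) and 4.65 (SE 1.57, adjusted p = 0.437). These sizes rested on single libraries. Without E10.5 esophagus 2 the differences from the esophagus were 9.92 for Otx1 and 12.17 for Otx2, and without LPh 1 they were 3.32 and 3.41. Against the trachea they were 2.73 and 2.88 without LPh 1, and Otx1 was at 9.93 without E10.5 trachea 2. At an unadjusted p under 0.05, Six3, Otx1, Otx2 and En2 were counted against each tissue. Of all 36495 genes, 978 were so counted against the esophagus and 1706 against the trachea. DESeq2 called 1 gene of the 8 in each pair, Otx1 in both. Without the 3 libraries rich in olfactory receptor genes, none of which is of this age, En2 passed in each pair.

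Counted by overlap, 5 of the 8 genes were higher in both LPh libraries than in both esophagus libraries (Six3, Otx1, Otx2, Emx2 and En2), where 10.1% of all genes were. Against the trachea the count was 4 of 8 (Six3, Otx1, Otx2 and En2) beside 13.4% of all genes. The median log2 difference of the 8 was 3.14 against the esophagus and 2.68 against the trachea, or 2.47 and 2.29 with genes at 0 set to the floor. Between esophagus and trachea at E10.5, none of the 8 passed by edgeR, with 0 at an unadjusted p under 0.05 and 0 by DESeq2. Of all 36495 genes, 0.00548% were called and 856 were at an unadjusted p under 0.05. By overlap, however, 4 of the 8 separated in this pair too. En1 and Egr2 were higher in the esophagus, beside 13.0% of all genes. Emx2 and En2 were higher in the trachea, beside 17.2% of all genes, with En2 at 2 counts or fewer in these libraries.

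Genes that accompany these factors at each level of the neural tube gave a picture of the same 6 libraries by list. Summed over 17 forebrain genes, LPh libraries held 162 and 42.5 CPM, esophagus 37.3 and 39.97, and trachea 27.03 and 12.5, so that LPh 1 stood apart and LPh 2 lay just above the esophagus. The sum of 9 midbrain and isthmus genes was 95.4 and 57.2 CPM in the LPh, 31.8 and 12.6 in the trachea and 47.2 and 51.1 in the esophagus. Hindbrain genes, 14 in number, summed to 222 to 388 CPM in the LPh, 252 to 296 in the trachea and 317 to 393 in the esophagus, with the LPh overlapping both other tissues and the trachea below the esophagus. The sum of the spinal cord genes, also 14, was lower in the LPh than in the esophagus. It was 8.94 and 19.3 CPM in the LPh, 36.9 and 9.09 in the trachea and 168 and 96.4 in the esophagus. Not all of this list ran that way. Isl2 (75.6 and 84.8 in the LPh, 56.8 and 101 in the esophagus) overlapped, as did Lhx3 (18.9 and 66.7 against 56.8 and 67.4). Lhx4 was lower in the LPh, at 50.8 and 144.6 against 165.6 and 148.4.

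By the test against the esophagus, 0 of 17 forebrain genes, 1 of 9 midbrain and isthmus genes (Tal2, higher), 0 of 14 hindbrain genes and 2 of 14 spinal cord genes (Hoxb6 and Hoxb9, lower in the LPh) passed. Tal2, of midbrain neurons, was at 386 and 15.6 in the LPh, 6.13 and 7.50 in the trachea and 3.92 and 4.55 in the esophagus (edgeR adjusted p = 0.0335 against the esophagus and 0.0292 against the trachea), and again LPh 1 stood far above LPh 2. Hoxb6, of the anterior spinal cord and trunk, was at 0 and 2.60 in the LPh, 28.9 and 11.8 in the trachea and 277 and 224 in the esophagus. Hoxb9, a gene of the thoracic level and behind, was at 0 in both LPh libraries against 35.9 and 0 in the trachea and 1504 and 571 in the esophagus (larynx minus esophagus, edgeR adjusted p = 0.0225). Against the floor it was at least 338-fold higher in the esophagus than in the LPh. Hoxd10, of the lumbar level, was at 0 in the LPh, at 203 and 0 in the trachea, and at 202 and 166 in the esophagus, with the 2 trachea libraries far apart (adjusted p = 0.0895 by edgeR against the esophagus). These Hox genes are also used in mesoderm, and the dermomyotome genes Meox1 and Meox2, both called, were at 21.3 to 77.0 in the LPh and 334 to 747 in the esophagus. Lhx2, a forebrain and eye gene, was at 908 and 188 in the LPh and at 67.5 to 232 in the other 4, so that LPh 2 overlapped them. Pax5, an isthmus gene, was at 281 and 98.7 in the LPh, 24.5 and 11.8 in the trachea and 71.6 and 83.8 in the esophagus. Pax7, of the same list, was also higher in the LPh (315 and 359) than in the esophagus (211 and 186). Lmx1b, again of that list, went the other way, at 266 and 282 in the LPh and 451 and 430 in the esophagus. Sim1, of the forebrain list, was at 236 and 58.0 in the LPh and 287 and 144 in the esophagus, which overlap. Lhx5 overlapped as well, at 130 and 97.8 against 65.7 and 134. Hoxb3, of the caudal hindbrain, was at 29.5 in LPh 1 and 450 in LPh 2, against 189 to 889 elsewhere, and thus was lowest in the library with the most Otx2.

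Genes shared by all levels of the neural tube were high in all 6 libraries and highest in LPh and esophagus. Progenitor genes (16) summed to 937 and 857 CPM in the LPh, 372 and 314 in the trachea and 624 and 828 in the esophagus, and 12 neuron genes to 989 and 1501, 454 and 402, and 991 and 1379 in the same order. Nes, the highest of the progenitor genes, was at 8553 and 8948 normalized counts in the LPh, 4291 and 3981 in the trachea and 6395 and 7896 in the esophagus. No gene of either list passed in larynx against esophagus or larynx against trachea. Sox1, a progenitor gene, was used as a denominator, a measure chosen after these values were seen. Sox1 itself was not level, at 785 and 370 in the LPh, 124 and 105 in the trachea and 140 and 216 in the esophagus, so that a gene with even counts has a low ratio in the LPh. Per Sox1 count, Otx2 was at 1.14 and 0.412 in the LPh, 0.128 and 0.245 in the trachea and 0 and 0.131 in the esophagus, and En2 at 0.362 and 0.164 in the LPh and at most 0.0142 elsewhere. Gbx2, whose normalized counts overlapped among the tissues, had ratios of 0.0375 and 0.157 in the LPh, 0.223 and 0.497 in the trachea and 0.314 and 0.422 in the esophagus. Both LPh libraries were below the other 4 for Gbx2 and above them for Otx2 and En2.

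**Figure D2:**
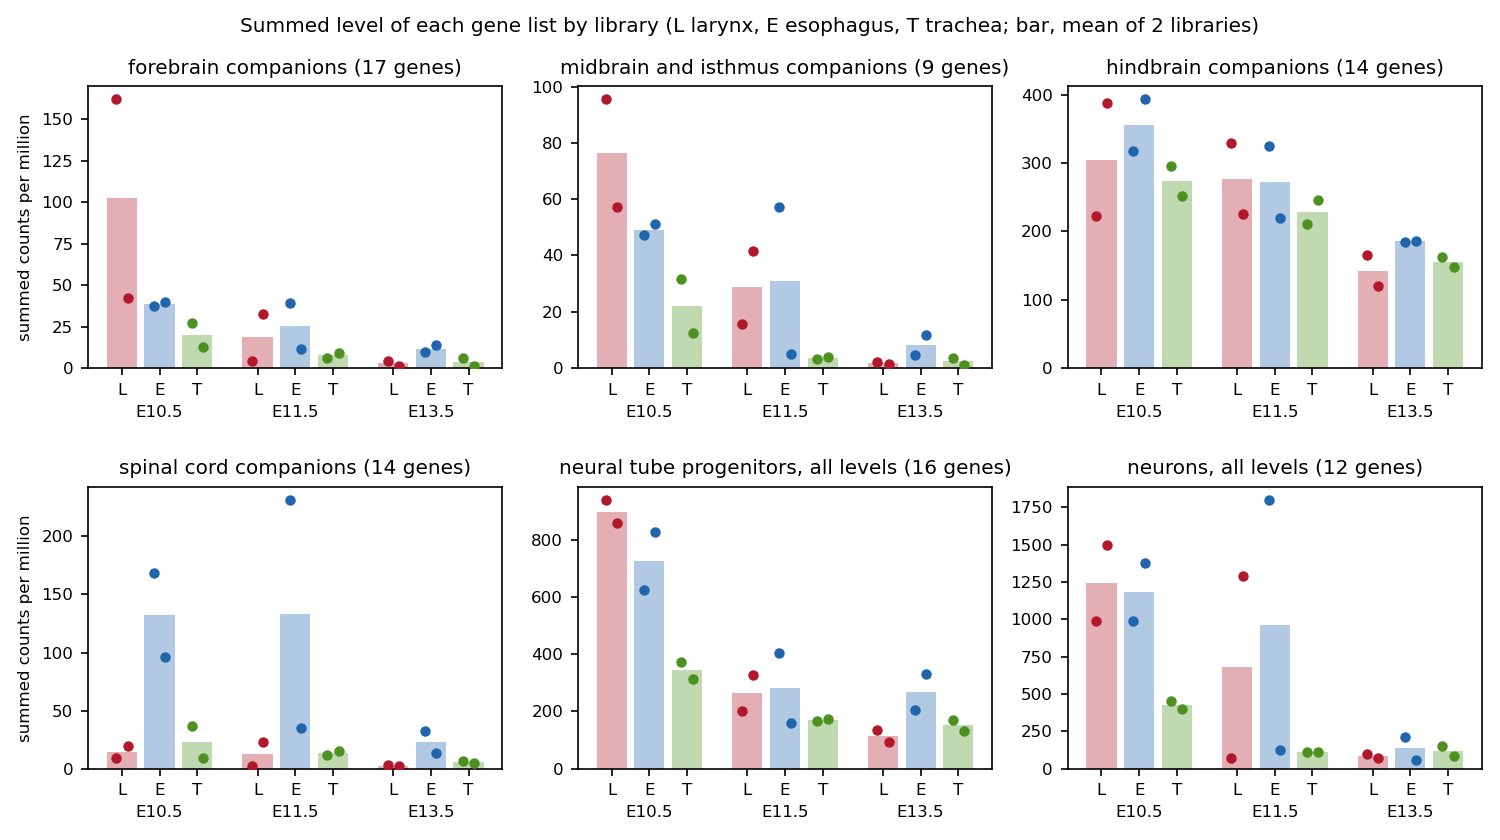
Summed CPM (vertical axis) of 6 lists of companion genes in each library from E10.5 to E13.5, with a point for each library, a bar for the mean of 2 and a color for each tissue. The spinal cord genes are at 8.94 and 19.3 CPM in the 2 E10.5 larynx (LPh) libraries against 168 and 96.4 in the esophagus, while for the hindbrain genes the larynx overlaps both other tissues. Epha4 is the highest gene of the hindbrain list.

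**Figure D3:**
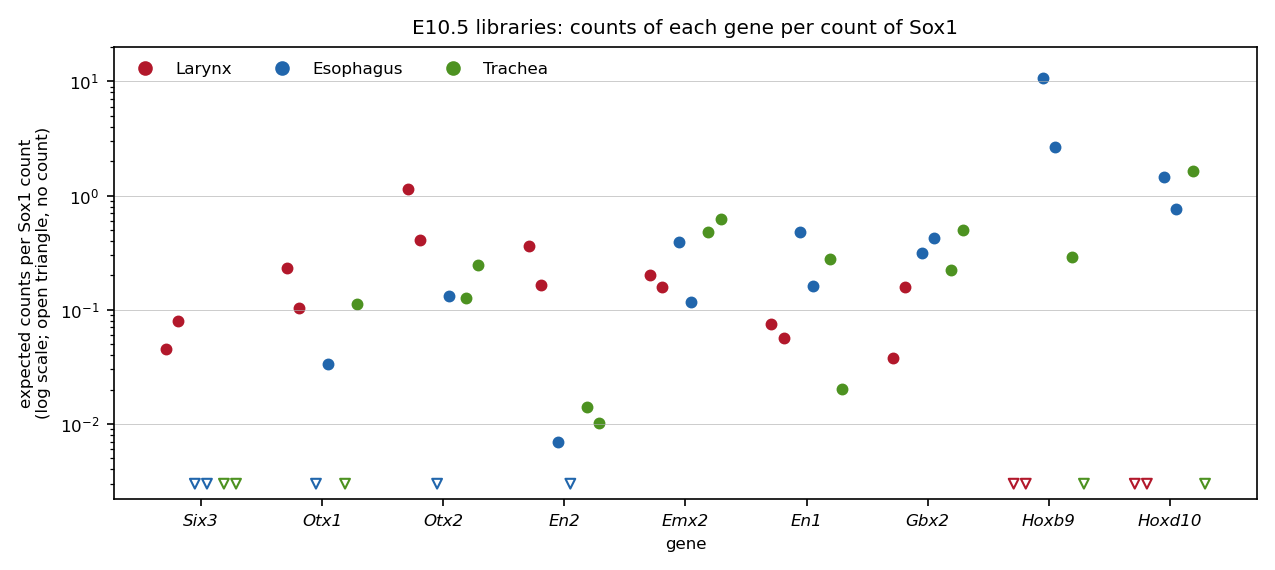
Expected counts of named genes per expected count of Sox1 (vertical axis, log scale) in the 6 libraries at E10.5, with a color for each tissue and open triangles for libraries with no count. Otx2 and En2 are highest in the 2 larynx (LPh) libraries, at 1.14 and 0.412 for Otx2, and Gbx2 is lowest there, at 0.0375 and 0.157.

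At E11.5 the brain genes were mostly at or near 0 in the trachea, and the 2 larynx libraries went apart. E11.5 larynx 2 held Otx2 at 84.6, Six3 at 47.6 and En2 at 58.2, and E11.5 larynx 1 held none of the 3. Larynx 2 is the library with counts for 1107 olfactory receptor genes, and larynx 1 is the shallowest, so that the part of either in this difference was not tested. In the esophagus Otx2 was at 0 and 0.820, En2 at 1.06 and 0.820 and Gbx2 at 77.2 and 2.47, with Gbx2 and the neuron genes (1798 and 127 CPM in sum) both high in esophagus 1. Emx2 went the other way there, at 15.9 and 137.7, with 15 and 167 expected counts. Sox1 had 47 and 2 expected counts in the same 2 libraries. Trachea libraries held Otx2, En2 and Six3 at 0, Gbx2 at 0.790 and 0, and Emx2 at 4.71 and 7.87.

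From E10.5 to E11.5, Otx2 fell over the mean of the 3 tissues and was the 1 gene of the 8 that passed, where 7.05% of all genes did. Its mean level was 186 at E10.5 and 14.2 at E11.5 (fitted log2 difference -5.22, SE 1.22, edgeR adjusted p = 0.0106). Without E10.5 esophagus 2, the esophagus library that held its 28.2, the difference was -2.90 and no longer passed, and without E11.5 larynx 2 it was -8.13. The call was also lost by DESeq2 (adjusted p = 0.256) and with a replicate block within age (edgeR adjusted p = 0.0897). Within the trachea alone, where Otx2 was at 15.8 and 25.7 and then at 0, it was at least 8.33-fold lower at E11.5. None of the 8 passed within any single tissue by edgeR, with 2 at an unadjusted p under 0.05 in the larynx, 3 in the trachea and 1 in the esophagus, and DESeq2 called 0, 1 and 0. Of all genes, 2.22, 0.800 and 1.02% passed in these tissues, in the same order. At an unadjusted p under 0.05 there were 5966, 2279 and 3125 of 36495 genes. Gbx2, with means of 50.4 and 25.8, did not pass over the 3 tissues (log2 -2.38, SE 0.858, edgeR adjusted p = 0.105).

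None of the 8 passed between tissues at E11.5 by edgeR, with 3 at an unadjusted p under 0.05 for larynx against esophagus, 7 for larynx against trachea and 2 for esophagus against trachea, and DESeq2 called 0, 2 and 1. The shares of all genes called were 0, 0.617 and 0.140%. At an unadjusted p under 0.05 there were 3478, 5925 and 2292 of 36495 genes in these pairs. With E11.5 larynx 1 left out, 6 of the 8 passed in larynx against trachea, a comparison that then rests on E11.5 larynx 2 alone and assumes that it varied like the other groups. Without the 3 libraries rich in olfactory receptor genes, none of the 8 passed in this pair.

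Between E10.5 and E13.5, over the mean of the 3 tissues 4 of the 8 fell (Otx2, Emx2, En2 and Gbx2) and 1 rose (Egr2), beside 30.2% of all genes called, 16.6% lower and 13.6% higher. Deviations of same-numbered libraries correlated over 0.1 in 3 of 3 pairs of tissues at E13.5 and in 1 of 3 at E10.5, and with a replicate block within age Emx2, En2 and Egr2 passed, while Otx2 (edgeR adjusted p = 0.213) and Gbx2 (0.0518) did not. Gbx2, lower, and Egr2, higher, did not overlap between the ages, which held for 12.1 and 8.92% of all genes in these directions. Gbx2 had a mean of 50.4 at E10.5 and 1.36 at E13.5, and was at 0 to 3.17 in the 6 later libraries against 27.1 to 91.1 in the 6 earlier, with no overlap (log2 -5.23, SE 0.969, edgeR adjusted p = 1.81e-04). Emx2 fell by 2.74 on the log2 scale (SE 0.520, edgeR adjusted p = 1.74e-04), from a mean of 70.3 to one of 12.8. Otx2 went from 186 to 5.93 (log2 -4.01, SE 1.01, edgeR adjusted p = 0.00476), a call lost by DESeq2 and without E10.5 esophagus 2, where the difference was -1.69. En2 was at 0 in all 6 libraries at E13.5 (edgeR adjusted p = 0.0216, lost without E10.5 esophagus 1, which held 1 count), and in the larynx it was at least 61.4-fold lower than at E10.5. Six3, Otx1 and En1 did not pass, with log2 differences of -0.74 (SE 0.669) for Otx1 and -1.30 (SE 0.664) for En1.

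In the larynx alone, all 8 genes had no overlap between E10.5 and E13.5, 7 of them lower, where 26.4% of all genes were lower without overlap and 20.2% higher. The larynx had Otx2 at 23 and 3.24, Otx1 at 15.9 and 5.41, Emx2 at 4.76 and 1.08 and Six3 at 0 and 1.08 at E13.5. By the test 4 of the 8 fell and none rose, beside 13.6% of all genes called. Emx2 fell by 5.10 on the log2 scale (SE 1.01, edgeR adjusted p = 7.44e-04), Otx1 by 3.32 (SE 1.05, adjusted p = 0.0324) and Otx2 by 5.27 (SE 1.62, adjusted p = 0.0355), and En2 passed at 0.00132. The calls for Otx1 and Otx2 were each lost without E10.5 larynx 1, E13.5 larynx 1 or E13.5 larynx 2, and with the block within age, under which Emx2 and En2 passed. Without E10.5 larynx 1 the differences were -1.80 for Otx1 and -3.50 for Otx2. Six3 (edgeR adjusted p = 0.0635), Gbx2 (0.0550), En1 (0.0733) and Egr2 (0.157) did not pass, though Six3 and Gbx2 did without the 3 libraries rich in olfactory receptor genes.

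The esophagus and trachea each had 1 gene that passed. Gbx2 fell in the esophagus, from 44.1 and 91.1 to 1.72 and 1.78 (log2 -5.18, SE 1.59, edgeR adjusted p = 0.0470), where 7.38% of all genes passed, and the call was lost without any 1 of these 4 libraries. Egr2 rose in the trachea, from 3.50 and 3.21 to 35.3 and 13.3 (log2 2.84, SE 0.870, edgeR adjusted p = 0.0414), where 7.98% passed, and was lost without either E10.5 trachea library or E13.5 trachea 1. With the block within age neither gene passed (edgeR adjusted p = 0.390 for Gbx2 and 0.116 for Egr2). En1 in the esophagus was at 66.7 and 34.6 and then at 104 and 41.8, which overlap. The difference between tissues in the change from E10.5 to E13.5 was tested directly, and edgeR called none of the 8, with 3 at an unadjusted p under 0.05 for larynx against esophagus, 3 for larynx against trachea and 0 for esophagus against trachea, and 0 by DESeq2 in each. The shares of all genes called were 0.104, 0.480 and 0%. At an unadjusted p under 0.05 there were 1417, 1829 and 840 of 36495 genes. The fall of a gene in the larynx was thus not shown to differ from that in the other tissues.

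**Figure D4:**
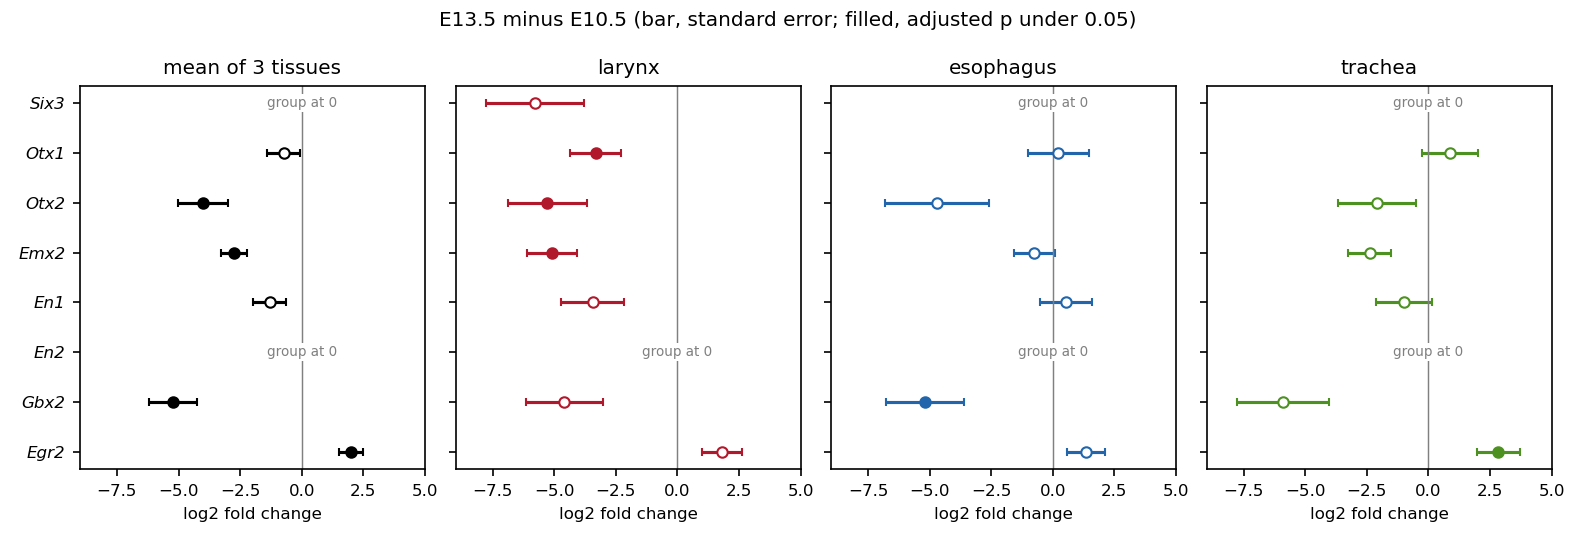
Log2 difference E13.5 minus E10.5 (horizontal axis) of the 8 genes in each tissue and over the mean of the 3, with 1 SE as bars, filled points where edgeR's adjusted p was under 0.05, and no point where a group was at 0. Otx2, Emx2 and Otx1 lie at -5.27, -5.10 and -3.32 in the larynx, and Egr2 lies above 0, at 2.84 in the trachea.

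Between E11.5 and E13.5, Emx2 fell (log2 -1.63, SE 0.525, edgeR adjusted p = 0.0266) and Egr2 rose (log2 1.29, SE 0.458, edgeR adjusted p = 0.0444), 2 of the 8 beside 21.5% of all genes. The median of all genes was -0.59 in this comparison, as against 0.29 from E10.5 to E11.5 and -0.04 from E10.5 to E13.5. The Emx2 call was lost in 6 and the Egr2 call in 8 of 12 fits that each left out 1 library, over which Emx2 ranged from -2.22 to -0.87 (without E11.5 esophagus 2) and Egr2 from 0.99 to 3.86 (without E11.5 larynx 2). Neither passed with the block within age (edgeR adjusted p = 0.873 and 0.314), and Egr2 did not with the plain replicate block (0.0514).

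Some companion genes of every brain level fell over the same interval. Over the mean of the 3 tissues from E10.5 to E13.5, 8 of 17 forebrain, 9 of 9 midbrain and isthmus, 7 of 14 hindbrain, 3 of 14 spinal cord, 16 of 16 progenitor and 10 of 12 neuron genes fell, beside 16.6% of all genes, and none of these lists had a gene that rose. Pax5 and Wnt1, of midbrain and isthmus, were at 0 in all 6 libraries at E13.5. Atoh1, of the rhombic lip of the hindbrain, and Lhx5, a forebrain and interneuron gene, were each at 0 in 5 of them. Lmx1b, also of the isthmus, fell by 4.96 on the log2 scale (SE 0.666, edgeR adjusted p = 1.66e-06) and Sox2, a progenitor gene, by 2.12 (SE 0.348, adjusted p = 2.78e-05). Nes, which encodes nestin, an intermediate filament of progenitors, fell by 1.16 and Tubb3, a neuronal tubulin, by 2.92 on the same scale. Progenitor genes still summed to 92.9 to 331 CPM at E13.5, a sum in which Nes weighs most. Nes was at 1987 to 5302 normalized counts in these libraries, Sox2 at 60.6 to 151 and Zic1 at 7.38 to 162. Msx3, Olig3 and Neurod4, of the same list, were at 0 to 6.03.

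The rise of Egr2 was set beside Schwann cell and immediate early genes, since Egr2 is known from both settings. Of 10 Schwann cell and crest genes, 4 rose and 2 fell between E10.5 and E13.5, among them Pmp22, which encodes a protein of compact myelin, with a log2 change of 2.06 (SE 0.154, edgeR adjusted p = 7.75e-11). Of 10 immediate early genes, transcription factors and phosphatases induced within minutes of a stimulus, 7 rose and none fell, including Fosb by 2.79, Egr3 by 2.47 and Fos by 1.91 on the log2 scale. Over all genes, 13.6% rose and 16.6% fell in this comparison. The summed level of the Schwann cell list was 134 to 252 CPM at E10.5 and 130 to 268 at E13.5, and that of the immediate early list 37.6 to 70.2 and then 56.2 to 103, with 9 or 10 of the Schwann cell genes at 3 or more counts in each of these libraries. Their part in the rise of Egr2 was not tested. Egr2 stood at 18.9 and 33.8 in the esophagus, 28.6 and 17.3 in the larynx and 35.3 and 13.3 in the trachea at E13.5, at 29.9 to 68.2 at E18.5, and at 78.9 and 56.8 in the adult larynx, all above the 1.18 to 11.8 of E10.5.

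Lists for other tissues near the cut pieces gave values to set beside the brain genes. Oc90, an otolith protein gene of the otic vesicle, was at 28.3 and 177 in the LPh, at 0 and 565.5 in the trachea, and at 0 and 407 in the esophagus at E10.5, so that the second library of each tissue held more than the first. Pmel, of pigment cells, was at 239 and 122 in the LPh against 34.3 to 69.2. The 8 eye and lens genes tested gave no call in larynx against esophagus and 1, Cryab, lower, in larynx against trachea. From E10.5 to E13.5, 2 of 8 eye and lens genes rose and 2 fell, 3 of 7 otic genes, 6 of 11 ganglion genes, 1 of 6 olfactory placode genes and 3 of 8 dermomyotome and ventral ectoderm genes fell with none rising, beside the same 16.6% of all genes lower and 13.6% higher, and 2 of 6 urogenital ridge genes rose and 2 fell. Foregut endoderm (5 of 9) and respiratory field genes (6 of 8) rose, with none falling. The part of these tissues in the levels of any of the 8 genes, Six3 and En2 included, was not tested.

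After E13.5 most of the 8 stayed low and Otx1 did not. Otx1 was at 0 to 59.2 in short-code libraries of E15.5, at 68.5 to 233 in index libraries of the same age and at 438 and 522 in the adult larynx, its highest levels in the series. Its P0 larynx libraries held 94.8 and 72.6. Kind of library and level moved together at E15.5, where each tissue has both kinds. Within index libraries of the larynx Otx1 was at 68.5 and 145 at E15.5, so that P0 overlapped E15.5 and both adult libraries were above the 4 younger ones, a difference that was not tested. Otx2 and Six3 reached no more than 6.34 and 20.6 from E15.5 on, both in E15.5 trachea 2, which is 1 of the 3 libraries rich in olfactory receptor genes, and Gbx2 reached 16.2 in E15.5 trachea 1. None of the 8 passed between E13.5 and E18.5 by edgeR, with 3 at an unadjusted p under 0.05 and 2 by DESeq2 (Otx1 and Egr2). Of all 36495 genes, 24.7% passed by edgeR and 11902 were at an unadjusted p under 0.05.

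A smooth curve over age, a natural spline on age rank tested against no change at an adjusted p of at most 0.01, was passed by 6 of the 8 over the 36 embryonic libraries, beside 34.3% of all genes. By edgeR these were Otx2 (adjusted p = 7.42e-07), Gbx2 (1.24e-05), En2 (4.06e-05), Egr2 (4.46e-05), Emx2 (1.52e-04) and Otx1 (0.00864), while Six3 (0.108) and En1 (0.171) did not pass. Over the larynx with P0 and adult, Six3, Otx2, Emx2, En2 and Gbx2 passed, 5 of 8 beside 26.1%. All P0 and adult libraries are index libraries, so that age and kind of library cannot be told apart at those ages. The curves held no term for tissue or kind of library. With short-code libraries alone, which leaves out P0 and adult, the larynx count was 1. In the esophagus Gbx2 (edgeR adjusted p = 0.00613) and in the trachea Egr2 (0.00500) passed, beside 5.87 and 11.498% of all genes. But the Gbx2 call was lost in 9 and the Egr2 call in 6 of 12 fits that each left out 1 library. The Gbx2 call in the esophagus was also lost with short-code libraries alone. The Otx1 call was lost with short-code libraries alone and with 2 degrees of freedom in place of 3, and in 26 of 36 fits that each left out 1 library. Without the 3 libraries rich in olfactory receptor genes, Six3 passed as well over the embryonic libraries and En1 and Egr2 over the larynx, which made 7 of 8 in each.

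Genes whose profile was most like that of each of the 8 were sought by Pearson's r of log2(normalized count + 1) over the 30 short-code libraries, among 18308 genes. The points share age, tissue and library, so that r is given as a description. Six3 was closest to Six3os1, the transcript on its opposite strand (r = 0.87), and to Nr2e1, a forebrain and retina gene (0.81). Six3os1 had 351 and 265 expected counts in the LPh, 0 in the trachea and 3 and 2 in the esophagus at E10.5. The strand setting of the counting is not stated, so whether reads from bases covered by both genes were assigned by strand is not known. In the LPh the expected counts of Six3 were also whole numbers, at 30 and 34. Those of Gbx2 were fractional there, at 24.92 and 66.98, as were those of D130058E05Rik on its opposite strand, at 15.08 and 22.02. How many reads these genes share was not tested. Otx2 was closest to Nr2e1 (0.80), Six3os1 (0.78) and Neurog2, a neurogenic factor (0.77). En2 was closest to Cntnap2 (0.74), Emx2 to Lix1 (0.79), with Twist1 and Msx1, genes of mesenchyme, both at 0.76, En1 to Sim1 (0.69) and Otx1 to Cryaa, a lens crystallin gene (0.71). Gbx2 had 5 genes at 0.95, among them Scrt1, Scrt2 and Lhx5, which are genes of neurons, and Egr2 was closest to P2rx7 (0.90), a purinergic receptor gene. By Spearman's rho the first gene of each kept 0.54 for Six3, 0.72 for Otx2, 0.85 for Gbx2 and 0.92 for Egr2. Without the 3 libraries rich in olfactory receptor genes and E11.5 larynx 1, the r with the first gene of each was 0.87 for Six3, 0.80 for Otx2, 0.71 for En2, 0.79 for Emx2, 0.69 for En1, 0.76 for Otx1, 0.95 for Gbx2 and 0.91 for Egr2 over 26 libraries, an alternative chosen after the data were seen. Among the 8 themselves, r was 0.75 for En2 and Six3, 0.71 for Otx2 and Six3, 0.68 for Otx2 and En2 and 0.61 for Gbx2 and Otx2, and over the 26 libraries 0.83, 0.70, 0.65 and 0.56.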

How the data were processed

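RNA from pooled, microdissected tissue was made into poly-A libraries, and the authors deposited expected counts per Ensembl gene, which the submitters' processing notes tie to FastQC 011.5, Bowtie2 2.4.2, RSEM 1.3.3 and GRCm39. Neither the strand setting nor the sequencer of each library is given in the sources used. Gene symbols were taken from GENCODE release 39 (52610 of 53647 identifiers matched). The 8 genes, the companion lists and the tests were chosen with earlier results of these data known.

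Expected counts were rounded and fitted with edgeR 4.0.16 (R 4.3.3) by the quasi-likelihood test, with median-ratio size factors, genes kept where 2 or more libraries reached a normalized count of 1 (36495 genes), 1 mean for each of 20 groups, and 20 residual degrees of freedom (common dispersion 0.154). Adjusted p-values are Benjamini-Hochberg over all genes tested. Each SE was derived from the test, as the size of the fitted log2 difference over the square root of its F statistic. Age curves were natural splines with 3 degrees of freedom on age rank, called where the adjusted p was 0.01 or less. With 2 pooled libraries a group, p-values measure the spread between libraries. A floor of 3 counts stands for libraries at 0 and covers counting error only. DESeq2 1.42.0, TMM factors, other filters and subsets of libraries were the alternatives. From each companion list, the 3 genes highest at E10.5 and the 3 that changed most from E10.5 to E13.5 could be named. Others (Tal2, Hoxb6, Meox1, Meox2 and the Sox1 ratios) were chosen after their values were seen. On simulated counts (34968 genes), E13.5 minus E10.5 over the mean of 3 tissues was called for 99 of 100 genes at 4-fold. At 32-fold it was called for 100 of 100, and in the larynx alone for 41 and 100 of 100. Genes at low levels were left out of those changed in the simulation. Six3 had no count in 28 of the 38 libraries outside the LPh, and Otx2 stood at 893 and 152 in the LPh. These rates were thus not shown to hold for the 8 genes.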

Additional observations from a re-analysis of the deposited data

How the results depend on the processing

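How many of the 8 genes passed changed with the filter, the tool and single libraries, and the cause was not tested. Without a filter on low counts the count rose from 1 to 2 for E11.5 minus E10.5 over the 3 tissues and from 0 to 1, 1 and 3 in the larynx, esophagus and trachea, from 4 to 7, 1 to 2 and 1 to 3 for E13.5 minus E10.5 in those tissues, from 0 to 1 for its difference between larynx and esophagus and between larynx and trachea, and from 0 to 3 for E18.5 minus E13.5. Between tissues the unfiltered counts were 4 and 4 at E10.5 (larynx against esophagus and trachea), 3 and 6 at E11.5, and 2 for esophagus against trachea at E11.5, and 8 for the larynx spline in place of 5. DESeq2 gave 0 (E11.5 minus E10.5, 3 tissues), 1 (trachea), 3 (E13.5 minus E10.5, trachea), 2 (E18.5 minus E13.5), 1 and 1 (E10.5 pairs), 2 and 1 (E11.5, larynx and esophagus against trachea), and 2, 2 and 8 for the esophagus, trachea and larynx splines. TMM factors gave 2 for E13.5 minus E10.5 in the trachea and 1 (En2) for larynx against trachea at E10.5. A filter at 10 gave 2 in that trachea comparison. Short-code libraries alone gave 2 there, 1 in each E10.5 larynx pair and for larynx against trachea at E11.5, and 0, 2 and 1 for the esophagus, trachea and larynx splines. Without the 3 libraries rich in olfactory receptor genes the counts were 2 (E11.5 minus E10.5), 1 (E13.5 minus E11.5), 2 (E13.5 minus E10.5, trachea), 1 (E18.5 minus E13.5) and 1 in each E10.5 larynx pair. Pooling the kinds of library at E15.5 gave 0 for E13.5 minus E11.5 and 2, 0 and 0 for E13.5 minus E10.5 in the larynx, esophagus and trachea.

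The labels do not say that replicate numbers pair the samples. Deviations of same-numbered libraries correlated at 0.001 to 0.142 at E10.5 and -0.315 to 0.207 at E11.5, but at 0.192 to 0.278 in all 3 pairs at E13.5. The replicate block gave 1 for E13.5 minus E11.5 and 0 for E13.5 minus E10.5 in the esophagus. With a block within age, the counts were 0 for E11.5 minus E10.5 and for E13.5 minus E11.5, 3 over the tissues for E13.5 minus E10.5, and 2, 0 and 0 in the larynx, esophagus and trachea.

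With each library left out in turn, the counts ranged from 0 to 2 (E11.5 minus E10.5), 0 to 2 (E13.5 minus E11.5), 4 to 6 (E13.5 minus E10.5), 2 to 5 in its larynx, 0 in its esophagus and 0 to 1 in its trachea, 0 to 1 for larynx against trachea at E10.5 (Otx1 without E10.5 trachea 2), 0 to 6 at E11.5 and 0 to 1 for esophagus against trachea at E11.5, and 5 to 7 over 36 libraries, 0 to 1, 0 to 2 and 4 to 7 in the esophagus, trachea and larynx for the splines. Every other comparison stayed at 0. Under the settings that left out no single library, counts over all genes moved as well, from 743 to 4143 around 2572 (E11.5 minus E10.5), 1626 to 9597 around 7849 (E13.5 minus E11.5), 4129 to 12188 around 11029 (E13.5 minus E10.5), 34 to 528 around 61 and 100 to 837 around 210 (larynx against esophagus and trachea at E10.5), and 0 to 441 around 2 (esophagus against trachea). Within the larynx, esophagus and trachea they ran from 304 to 2435 around 811, 168 to 1284 around 371 and 99 to 1130 around 292 for E11.5 minus E10.5, and from 2354 to 6998 around 4970, 949 to 4806 around 2693 and 896 to 5080 around 2912 for E13.5 minus E10.5. Differences between tissues in the latter ran from 18 to 602 around 38 (larynx and esophagus), 61 to 662 around 175 (larynx and trachea) and 0 to 237 around 0 (esophagus and trachea). For the same pairs at E11.5 the ranges were 0 to 878 around 0, 56 to 2600 around 225 and 1 to 1268 around 51. They were 4140 to 10328 around 9031 for E18.5 minus E13.5 and 1334 to 5650 around 1667, 2615 to 7337 around 3382 and 3578 to 11729 around 8504 for the esophagus, trachea and larynx splines. TMM factors moved the median of all genes in the larynx from E10.5 to E11.5 from 0.55 to 0.43. No called log2 difference of the 8 genes changed sign under these alternatives. Depth limits E11.5 larynx 1 above all, where 3 counts equal 0.913 CPM.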

Other observations

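Of 8 respiratory field genes, 2 were lower in the LPh at E10.5 than in each other tissue. These were Tbx5 and Wnt2, genes of the mesoderm around the respiratory tube, at 7.09 and 3.46 and at 7.09 and 11.3 in the LPh, against 281 to 747 for Tbx5 and 97.4 to 291 for Wnt2 in the other 4 libraries, and both were lower in the LPh by edgeR's quasi-likelihood test (adjusted p = 0.00942 and 0.00602 against the esophagus, 0.00149 and 1.72e-04 against the trachea). Wt1, of the urogenital ridge and mesothelium, was at 0 and 2.60 in the LPh and at 92.0 to 215 elsewhere (edgeR adjusted p = 0.0104 and 0.00248). Wt1 was 1 of 6 urogenital ridge genes. Nkx2-1, a marker of the lung field endoderm though not of it alone, was at 62.6 and 4.33 in the LPh, 12.3 and 9.64 in the trachea and 0 in the esophagus, and did not pass (edgeR adjusted p = 0.112 and 1.0). Its high value was thus in LPh 1 only, the library with the most Otx2.

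At E11.5 esophagus 1 held Gbx2 at 77.2, Lhx5 at 137.5 and 1798 CPM of neuron genes, and esophagus 2 held 2.47, 0.825 and 127. Lhx5 is 1 of the genes whose profile was closest to that of Gbx2.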
